A study of Mus musculus with 11 samples.

Results

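Of the 53465 genes counted, 10 genes of the prostaglandin D2 and E2 pathway were followed: Ptgdr, Ptgdr2, Ptgds, Hpgds, Ptgs1, Ptgs2, Ptges, Ptges3, Ptger3 and Ptger4. The starting gene, Ptgdr, was picked by its rise in withdrawn mice, so its values are given as a description without a test. The other 9 were added because they make or bind the same lipids, and 24 further prostanoid genes were used as a comparison. RNA was sequenced from GFP-positive cells sorted from the medial prefrontal cortex (mPFC) of male CRF1:GFP mice, 1 mouse per library. Withdrawn mice (n = 5) breathed ethanol vapor on an intermittent schedule for 5 to 6 weeks, were injected with ethanol (1.75 g/kg) and pyrazole (68.1 mg/kg), an inhibitor of alcohol dehydrogenase, and were taken 5 to 8 days into abstinence. Naïve mice (n = 6) received pyrazole and air, so both groups carried the GFP reporter and were given pyrazole. Mice were adult, over 10 weeks of age. GFP in this line reports expression of the corticotropin releasing factor receptor 1 (CRF1). The dissociated cells were enriched for neurons on a density gradient, and live cells were then sorted by GFP and stains for nuclei and dead cells.

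Prostaglandins are short-lived lipids made from arachidonic acid, which phospholipases free from membranes. A cyclooxygenase (Ptgs1 or Ptgs2) turns arachidonic acid into prostaglandin H2, and terminal synthases turn that into D2 (Ptgds, Hpgds) or E2 (Ptges, Ptges3). Each product leaves the cell and acts nearby through G protein-coupled receptors, Ptgdr and Ptgdr2 for D2 and the Ptger receptors for E2. In brain, D2 is known for promoting sleep and E2 for fever, and Ptgds is known as one of the abundant transcripts of the leptomeninges, the membranes that cover the cortex.

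Counts on genes were 9970161 to 17855514 per naïve and 7351567 to 22244869 per withdrawn mouse. Levels are CPM, counts scaled to the TMM-normalized library size. Scaled to the library total without TMM, 3 counts equal 0.135 to 0.408 CPM in a single library, a floor that covers counting error only. Naïve mouse 5 stood apart with 15585 genes counted, the fewest, against up to 31830 in withdrawn mouse 4. Of the reads tallied, 5.77% fell outside exons in naïve mouse 5, against 39.6% in withdrawn mouse 2 and 48.1% in withdrawn mouse 4. Withdrawn mouse 2 stood apart from the other withdrawn mice in several of the genes below, and values without it are given beside them. For withdrawn mice 3, 4 and 5 a second label reads control, and log2 fold changes without these 3 mice are given for each tested member. The withdrawn side of those values rests on mice 1 and 2 alone, of which mouse 2 stood apart. The label calls the sorted cells neurons. A list of 5 neuron markers (Slc17a7, Neurod6, Snap25, Rbfox3 and Syt1) had the highest sum of all marker lists in each mouse. Of these, Slc17a7 and Neurod6 mark glutamatergic neurons, while Snap25, Rbfox3 and Syt1 mark neurons in general. The summed level of the 5 was 8953 to 11390 CPM in naïve and 5540 to 9371 CPM in withdrawn mice. That of 3 GABAergic markers was 47.6 to 213.7 and 19.0 to 404.1 CPM, and these sums do not give the share of each neuron type. Mean Slc17a7 was 1429 CPM in naïve and 1352 CPM in withdrawn mice, and mean Snap25 was 5638 and 4228 CPM. All 5 neuron markers had a negative log2 fold change (median -0.20), as did 8241 of all 17093 genes tested. Of the 5, 1 had an unadjusted p under 0.05 (7.22% of all genes, either direction). None was called by edgeR (0.00585% of all genes) or DESeq2 (1.66% of genes given an adjusted p), so with 5 genes the lack of calls says little. Markers of other cells were also read, among them 8 fibroblast markers (Col1a1, Col1a2, Col3a1, Dcn, Lum, Ogn, Pdgfra and Slc6a13). Their sum was 0.0677 to 78.8 CPM in naïve mice and 18.1 to 1314 CPM in withdrawn mice. In such bulk libraries, fewer cells of a type and less RNA per cell cannot be told apart.

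Upstream windows of 3 members are shown because their transcripts behaved unalike: Ptgdr and Ptges were higher in withdrawn mice and the groups overlapped for Ptger3. Each window holds the 250 bases before the gene start (RefSeq, GRCm38.p6), written 5′ to 3′ on the strand of the gene, at chr14:44859376-44859625 (minus strand) for Ptgdr, chr2:30903298-30903547 (minus strand) for Ptges and chr3:157566626-157566875 (plus strand) for Ptger3. The Ptges window lies inside the annotated gene, which has a start further upstream, and overlaps no annotated exon. Capitals mark GC boxes.
Ptgdr: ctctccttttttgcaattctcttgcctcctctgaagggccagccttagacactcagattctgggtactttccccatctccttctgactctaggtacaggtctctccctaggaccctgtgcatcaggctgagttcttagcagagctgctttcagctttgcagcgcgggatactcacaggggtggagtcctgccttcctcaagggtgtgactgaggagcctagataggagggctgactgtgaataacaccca
Ptges: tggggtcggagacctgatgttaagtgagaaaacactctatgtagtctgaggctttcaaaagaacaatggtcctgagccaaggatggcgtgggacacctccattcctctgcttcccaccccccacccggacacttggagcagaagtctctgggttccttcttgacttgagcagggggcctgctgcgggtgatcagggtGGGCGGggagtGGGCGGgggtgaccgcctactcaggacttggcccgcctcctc
Ptger3: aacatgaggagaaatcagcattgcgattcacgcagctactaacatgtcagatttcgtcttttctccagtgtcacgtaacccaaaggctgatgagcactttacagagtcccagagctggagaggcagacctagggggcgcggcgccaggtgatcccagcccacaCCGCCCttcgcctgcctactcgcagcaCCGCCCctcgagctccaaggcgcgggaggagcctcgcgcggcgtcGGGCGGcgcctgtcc
Motifs were searched on both strands, with overlaps counted, namely the TATA box (TATAAA), the GC box (GGGCGG), the CCAAT box (CCAAT), the cAMP response element (TGACGTCA), the AP-1 site (TGANTCA) and the E-box (CACGTG). The Ptgdr window held none of them. The Ptges window held 2 GC boxes, which began 53 and 42 bases before the start, and the Ptger3 window held 3, at 87, 60 and 15 bases. GC boxes were present in 32.7% of all 32851 such windows, CCAAT boxes in 33.8%, TATA boxes in 12.4%, AP-1 sites in 6.75%, E-boxes in 6.02% and cAMP response elements in 1.55%. Among the other members, GC boxes were present for Ptges3 (3), Ptger4 (4), Ptgdr2 (1) and Ptgs2 (1), a CCAAT box for Ptger4 and Ptgdr2, and an AP-1 site for Ptgds. The windows of Hpgds and Ptgs1 held none of the 6 motifs. GC boxes stood before Ptges, for which all withdrawn mice were above every naïve mouse and which edgeR did not call. They also stood before members whose groups overlapped (Ptges3, Ptger3, Ptgs2, Ptger4 and Ptgdr2). With GC boxes in 32.7% of all windows, no link to the differences is read from this. A match is a description of letters, not of binding.

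The receptor Ptgdr, which couples to Gs and raises cAMP when D2 binds, was close to absent in naïve mice. Its raw counts were 0, 2, 2, 1, 0 and 0 in naïve mice 1 to 6. In withdrawn mice 1 to 5 they were 703, 8, 480, 270 and 203. All 5 withdrawn mice were above all 6 naïve mice, and withdrawn mouse 2 was far below the other 4. On the CPM scale the withdrawn mice had 50.3, 0.884, 22.4, 32.6 and 14.3, while the highest naïve mouse had 0.186. Means were 0.0589 ± 0.0763 CPM (SD, n = 6) and 24.1 ± 18.7 CPM (SD, n = 5). Pooled over mice, 1664 counts stood against 5, a ratio of 444.8 with a 95% exact interval of 190.2 to 1372 that covers counting error only. The log2 fold change of the fit was 8.50 (SE 1.08), and it ranged from 8.03 to 9.02 when each mouse was left out in turn. Without the 3 mice of conflicting label it was 8.56. All 6 naïve libraries were under the floor of 3 counts.

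**Figure D1:**
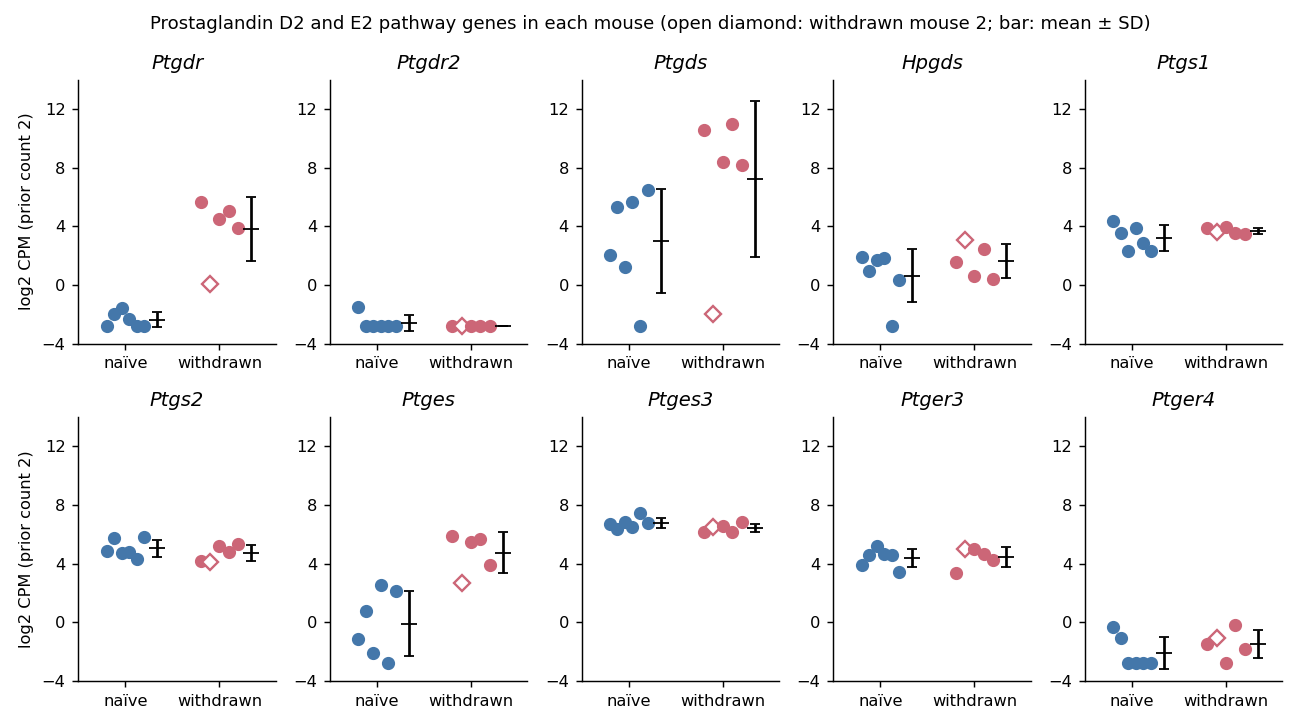
Level of each member in each mouse, as log2 CPM with a prior count of 2, for 6 naïve (blue) and 5 withdrawn (red) mice, with bars for the mean ± SD and an open diamond for withdrawn mouse 2. Ptgdr and Ptges are higher in all 5 withdrawn mice than in any naïve mouse, Ptgds is higher in 4 of 5, and the groups overlap for the remaining members.

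Ptgdr lies on the minus strand at chr14:44851235-44859375 (GRCm38), and 705 of its 3187 exonic bases (22.1%) are shared with the opposite-strand pseudogene Gm16976. The shared stretch is the start of the first Ptgdr exon, and 75 bases of the Gm16976 exon reach into the window printed above. Gm16976 had 23, 29, 14, 5, 0 and 8 counts in naïve mice 1 to 6 and 15, 39, 5, 53 and 11 in withdrawn mice 1 to 5. Its groups overlapped, with 2 of 5 withdrawn mice above the highest naïve mouse and a log2 fold change of 1.33 (SE 1.10; edgeR adjusted p = 0.868). The order of the mice also differed from that of Ptgdr, as withdrawn mouse 2 had the second highest Gm16976 count of its group and the lowest Ptgdr count. Whether reads were counted by strand is not given in the sources used here, so reads in the shared bases cannot be told apart by strand. Counts given to Gm16976 do not show how reads of the shared bases were assigned. The part of Gm16976 reads in the Ptgdr counts was not tested. Ptger2, another prostaglandin receptor gene, lies further upstream and had at most 3 counts in a naïve and 18 in a withdrawn mouse.

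**Figure D2:**
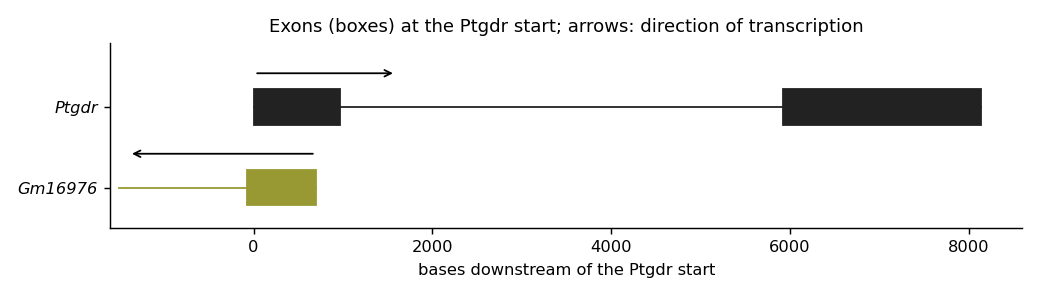
Annotated exons (boxes) of Ptgdr and Gm16976 on an axis of bases downstream of the Ptgdr start, with arrows for the direction of transcription; the Gm16976 line goes on to the left of the plotted range. The first exon of Gm16976 covers the Ptgdr start and the first 705 bases of its first exon, while the second Ptgdr exon is free of it.

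The second D2 receptor, Ptgdr2 (also called CRTH2), which draws eosinophils and T helper cells towards D2, was not detected in withdrawn mice. All 5 withdrawn mice had 0 counts, which allows at most 0.135 to 0.408 CPM per library, scaled to the library total without TMM. Among naïve mice, only mouse 1 had counts (2 counts, 0.214 CPM). The gene was below the low-count filter and was not tested, and 39% of its exonic bases (gene at chr19:10937160-10942511, plus strand) overlap Ccdc86 on the opposite strand, which had 11.1 to 26.3 CPM in naïve and 11.7 to 23.2 CPM in withdrawn mice. How reads of these shared bases were assigned is not given in the sources used here, so the 0 counts may not cover them. Of the 2 D2 receptors, therefore, withdrawn libraries had counts of Ptgdr alone at this depth.

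Ptgds, the lipocalin-type synthase that makes D2 in brain and is secreted into cerebrospinal fluid (chr2:25466709-25470046, minus strand), had the widest spread of log2 CPM among the tested members, with an SD of 3.54 in naïve and 5.30 in withdrawn mice. In withdrawn mice 1 to 5 its level was 1552, 0.111, 337.4, 1979 and 286.4 CPM. In naïve mice it ranged from 0 to 90.5 CPM with a median of 22.2 CPM. All withdrawn mice but mouse 2 were above every naïve mouse, and mouse 2, with 1 count, was below 5 of the 6 naïve mice. Means were 31.3 ± 36.2 CPM (SD, n = 6) and 831 ± 875.9 CPM (SD, n = 5). The log2 fold change was 4.73 (SE 1.45; 95% interval 1.61 to 7.85), and it did not pass the threshold (edgeR adjusted p = 0.334; DESeq2 adjusted p = 0.106). Without withdrawn mouse 2 it was 5.02, with an adjusted p of 0.0705 by edgeR and 0.0174 by DESeq2. Without the 3 mice of conflicting label it was 4.60 (edgeR adjusted p = 0.789), from withdrawn mice 1 (1552 CPM) and 2 (0.111 CPM).

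Hpgds, the glutathione-dependent D2 synthase of mast cells and microglia (chr6:65117293-65144908, minus strand), was low and overlapped between groups. Its levels were 0 to 3.53 CPM in naïve mice (median 2.41) and 2.86, 8.40, 1.35, 5.43 and 1.20 CPM in withdrawn mice 1 to 5. Here withdrawn mouse 2 was the highest of all 11 mice, the opposite of its place for Ptgds. Its log2 fold change was 0.84 (SE 0.96; 95% interval -1.21 to 2.90; edgeR adjusted p = 0.914), and 1.32 without the 3 mice of conflicting label. The 5 mast cell markers summed to 0.135 to 38.1 CPM in naïve and 13.6 to 45.2 CPM in withdrawn mice, nearly all of it Kit. Cpa3, Mcpt4 and Tpsb2 were at 0 in all naïve mice, and in withdrawn mice they had at most 17, 8 and 1 counts. The 8 microglia markers summed to 7.81 to 25.3 and 8.29 to 44.3 CPM. Their part in the Hpgds level was not tested.

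Compared per kb of exon, Ptgds carried nearly all D2 synthase transcript in most mice. Its share of the sum of Ptgds and Hpgds was 73.9% to 99.7% (median 98.3%) in the 5 naïve mice with reads of either gene, and 99.89% to 99.95% in 4 withdrawn mice. Withdrawn mouse 2 had 4.88%, so its small pool was mostly Hpgds.

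Both cyclooxygenase genes, Ptgs2 (chr1:150100031-150108227, plus strand) and Ptgs1 (chr2:36230426-36252272, plus strand), were present in all 11 mice, and neither difference passed the test. Ptgs2, the inducible enzyme that excitatory neurons of the forebrain also make with activity, had 20.02 to 56.2 CPM in naïve mice (median 28.6) and 17.8, 17.5, 37.6, 27.0 and 39.9 CPM in withdrawn mice 1 to 5. Ptgs1, the constitutive enzyme, had 4.74 to 20.3 CPM (median 9.37) in naïve mice and 14.5, 12.1, 15.3, 11.6 and 10.7 CPM in withdrawn mice. The withdrawn mice lay close together for Ptgs1, all within the naïve range, and 2 withdrawn mice were under the lowest naïve mouse for Ptgs2. In the edgeR fit the log2 fold change was -0.34 for Ptgs2 (SE 0.34; 95% interval -1.07 to 0.39; edgeR adjusted p = 0.901) and 0.29 for Ptgs1 (SE 0.45; 95% interval -0.67 to 1.25; edgeR adjusted p = 0.946). These intervals leave room for a change of either sign. Without the 3 mice of conflicting label, the log2 fold change of Ptgs2 was -1.05 (SE 0.49; edgeR adjusted p = 0.789) and that of Ptgs1 was 0.28. The opposite-strand Gm43621 shares 3.81% of the Ptgs1 exonic bases and had at most 12 counts in a mouse. Ptgs2 made up 54.8% to 90.95% of both genes' level per kb in naïve mice and 51.0% to 75.95% in withdrawn mice. With the longest transcript as length the shares were 47.96% to 88.4% and 44.1% to 70.6%, and Ptgs1 was then the larger in naïve mouse 1 and withdrawn mice 1 and 2.

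Of the E2 synthases, Ptges was higher in every withdrawn mouse and Ptges3 was not. Ptges (chr2:30889471-30929863, minus strand) encodes the inducible microsomal synthase that works with Ptgs2 in inflammation and fever. Its level was 60.4, 6.19, 45.2, 52.0 and 15.1 CPM in withdrawn mice 1 to 5. In naïve mice it was 0.321, 1.58, 0.093, 5.57, 0 and 4.31 CPM. The lowest withdrawn mouse, mouse 2, was only slightly above the highest naïve mouse, and the other 4 were well clear of it. Means were 1.98 ± 2.40 CPM (SD, n = 6) and 35.8 ± 23.8 CPM (SD, n = 5). The log2 fold change was 4.15 (SE 1.04; 95% interval 1.93 to 6.38). Ptges was called by DESeq2 (adjusted p = 0.00292) and not by edgeR (adjusted p = 0.202), and without withdrawn mouse 2 the values were 6.83e-04 and 0.0603. With no low-count filter edgeR gave an adjusted p of 0.029. Without the 3 mice of conflicting label the log2 fold change was 4.02 (edgeR adjusted p = 0.713).

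Ptges3, the cytosolic synthase better known as p23, a co-chaperone of Hsp90 (chr10:128058954-128077272, plus strand), had 82.9 to 172.1 CPM in naïve mice (median 106.8). Withdrawn mice 1 to 5 had 71.6, 91.7, 93.4, 72.3 and 114.7 CPM, of which 2 lay under the lowest naïve mouse. It had a log2 fold change of -0.33 (SE 0.20; 95% interval -0.77 to 0.10; edgeR adjusted p = 0.806), and of -0.51 without the 3 mice of conflicting label. A processed pseudogene, Ptges3-ps, is annotated elsewhere, so reads could be split between them. Per kb of exon, Ptges made up 0% to 3.32% (median 0.621%) of the sum of Ptges and Ptges3 in naïve mice and 3.67% to 32.3% (median 21.4%) in withdrawn mice. The ranges did not overlap, and Ptges3 was the larger in every mouse. A further E2 synthase, Ptges2, had 10.9 to 43.7 CPM per kb in naïve and 8.33 to 18.0 CPM per kb in withdrawn mice (log2 fold change -0.50, SE 0.32; edgeR adjusted p = 0.818). With it in the sum, the share of Ptges was 0% to 2.37% and 2.65% to 25.3%.

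Of the E2 receptors, Ptger3 did not pass the test and Ptger4 was too low to be tested. Ptger3, the Gi-coupled EP3 receptor (chr3:157566892-157645888, plus strand), had 10.4 to 37.2 CPM in naïve mice (median 23.6) and 10.0, 32.1, 31.7, 25.1 and 18.6 CPM in withdrawn mice 1 to 5. The groups overlapped almost fully. The log2 fold change was 0.07 (SE 0.38; 95% interval -0.75 to 0.89; edgeR adjusted p = 0.984), and its sign turned in several other settings, for example to -0.15 without the 3 mice of conflicting label. Ptger4, the Gs-coupled EP4 receptor (chr15:5206661-5244187, minus strand), had 6 counts in naïve mice 1 and 2 and 0 in the other 4, and 3, 3, 0, 6 and 2 counts in withdrawn mice 1 to 5. It was below the low-count filter. On the opposite strand, Gm15937 shares 15.3% and Ttc33 1.23% of its exonic bases, with at most 3 counts of Gm15937 and 51.7 to 94.0 CPM of Ttc33 over all mice.

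**Figure D3:**
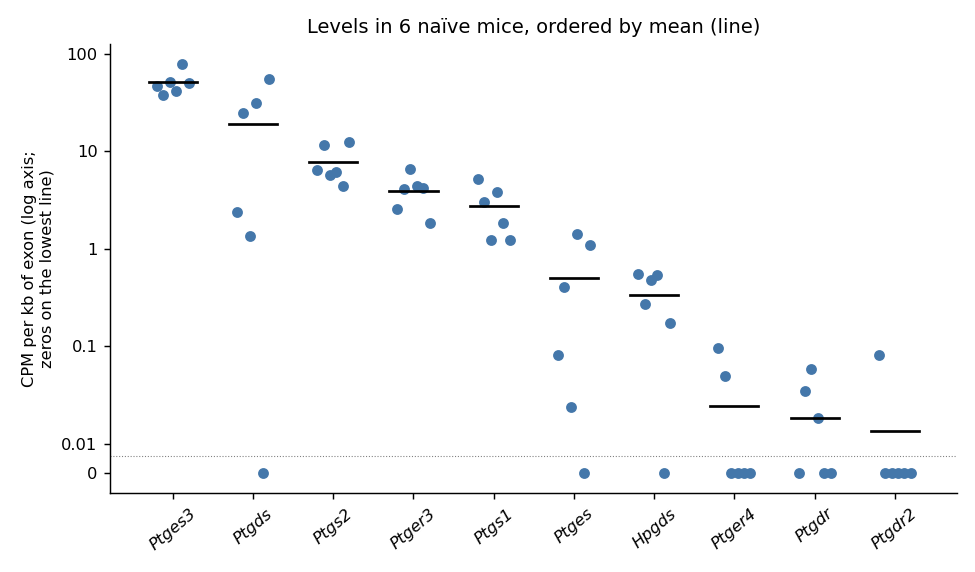
Level of each member in the 6 naïve mice, in CPM per kb of annotated exon on a log axis with zeros on the lowest line, ordered by the mean (line). Ptges3 had the highest mean and Ptgdr2 the lowest, and the ranges of neighbouring genes overlap throughout.

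In the order of naïve level per kb, Ptges3 came first with 50.7 CPM per kb (range 37.4 to 77.6), followed by Ptgds with 19.0 (range 0 to 54.9) and Ptgs2 with 7.75 (range 4.37 to 12.3). Ptger3 had 3.95 CPM per kb, Ptgs1 2.72, Ptges 0.504 and Hpgds 0.336. The lowest were Ptger4 (0.0243), Ptgdr (0.0185) and Ptgdr2 (0.0135). Ranges of each pair of neighbours in this order overlapped. Among 17063 genes tested and named, Ptges3 ranked 1112, Ptgs2 5821, Ptges 14584 and Ptgdr 17060. Genes low in both groups, Ptgdr2 and Ptger4 among them, were below the filter and not ranked. Ptgdr passed the filter through its withdrawn counts, so its rank near the end follows from that and is no separate result. In withdrawn mice the mean level of Ptgds was 504.0 CPM per kb, above that of Ptges3 (40.02), although withdrawn mouse 2 had 0.067 for Ptgds.

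Across the 9 members other than Ptgdr, 7 passed the low-count filter. In the edgeR fit, 5 of these 7 had a positive and 2 a negative log2 fold change, with a median of 0.29, against a median of 0.02 over all 17093 genes tested. A call needed a Benjamini-Hochberg adjusted p no higher than 0.05 together with a log2 fold change over 0.6 in size. By edgeR none of the 7 was called, while 2 (Ptgds and Ptges) were higher at an unadjusted p under 0.05. Over all genes tested, edgeR called 1 (0.00585%). It is Ptgdr, which was picked on this contrast, so its call is not a test of its rise. In 11 of the alternative settings Ptgdr was not called. Of all genes tested, 5% were higher at an unadjusted p under 0.05. DESeq2 called 1 of the 7, Ptges, against 1.66% of the 21849 genes to which it gave an adjusted p. All 5 withdrawn mice were above every naïve mouse for 1 of the 7 (Ptges), compared with 0.696% of all genes tested, and at least 4 were for 2 of the 7 (Ptgds and Ptges), compared with 4.56%. Without withdrawn mouse 2, edgeR called 0 of these members (1.06% of all genes) and DESeq2 called 2, Ptgds and Ptges (2.5% of all genes).

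**Figure D4:**
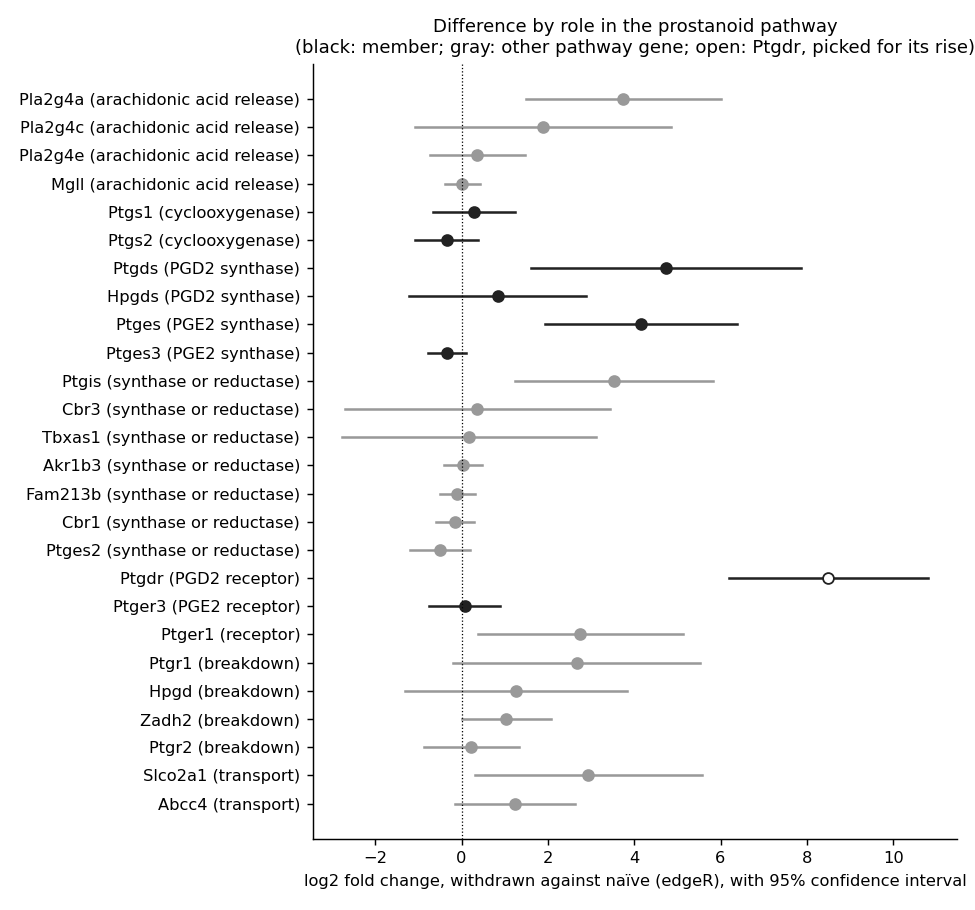
Log2 fold change of withdrawn against naïve mice with its 95% confidence interval from edgeR, by role, for members (black), other prostanoid genes (gray) and Ptgdr (open circle, picked for its rise). Intervals clear of 0 belong to Ptgds, Ptges, Pla2g4a, Ptgis, Ptger1, Zadh2 and Slco2a1, and none of these 7 was called by edgeR. The interval of Ptgdr is shown as a description and is not a test.

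Of the 24 other prostanoid genes, 18 were tested by edgeR, with 15 positive and 3 negative log2 fold changes and a median of 0.70, where 51.8% of all genes tested were positive. None was called by edgeR, and 5 had an unadjusted p under 0.05 (7.22% of all genes, either direction). Ptger1, among these 5, passed the low-count filter through its withdrawn mice. DESeq2 gave an adjusted p to 20 of the 24 genes. It called 2, Pla2g4a and Ptgis, against 1.66% of all genes to which it gave one. Pla2g4a, the cytosolic phospholipase that frees arachidonic acid, had 77.7, 0.332, 12.5, 27.2 and 17.6 CPM in withdrawn mice 1 to 5 and 0 to 3.88 CPM in naïve mice. All withdrawn mice but mouse 2 were above every naïve mouse, and mouse 2 was within the naïve range. Its log2 fold change was 3.75 (SE 1.05), with adjusted p = 0.270 by edgeR and 0.0107 by DESeq2, and without withdrawn mouse 2 it was 4.04 (edgeR adjusted p = 0.0386). Ptgis, prostacyclin synthase, had 79.0, 0, 36.6, 41.8 and 21.0 CPM in withdrawn mice 1 to 5 and 0.273 to 8.19 CPM in naïve mice. Here too all withdrawn mice but mouse 2 were above every naïve mouse, and mouse 2, at 0 counts, was below the naïve range. Its log2 fold change was 3.53 (SE 1.06), with adjusted p = 0.327 by edgeR and 0.0344 by DESeq2, and 3.82 without withdrawn mouse 2 (edgeR adjusted p = 0.0253).

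By role, all 4 tested genes of arachidonic acid release and all 4 of breakdown had a positive log2 fold change. So did both transporters and 4 of 7 synthases or reductases. The single tested receptor, Ptger1, was also positive, but it passed the low-count filter through its withdrawn mice. Its sign follows from that filter and says nothing about the receptor role. These are 1 to 7 genes a role, most with no call by either tool. The tested gene of each role with the highest naïve level per kb did not pass the test. Mgll, which frees arachidonic acid from an endocannabinoid, had a naïve mean of 97.6 ± 21.5 CPM (SD, n = 6) and a withdrawn mean of 98.5 ± 15.8 CPM (SD, n = 5; log2 fold change 0.02, SE 0.19; edgeR adjusted p = 0.991). For Fam213b, a prostaglandin F synthase, the means were 126 ± 26.4 and 117 ± 23.0 CPM (SD; log2 fold change -0.10, SE 0.19; edgeR adjusted p = 0.959). Ptger1, the EP1 receptor for E2, was near the floor in naïve mice (0 to 1.10 CPM) and at 1.72, 2.99, 0.793, 3.86 and 2.05 CPM in withdrawn mice 1 to 5. In all, 4 withdrawn mice, mouse 2 among them, were above every naïve mouse, and the log2 fold change was 2.75 (SE 1.11; edgeR adjusted p = 0.580). Zadh2, a reductase of prostaglandin breakdown, had a log2 fold change of 1.04 (SE 0.48; edgeR adjusted p = 0.689), and Abcc4, which exports prostaglandins, of 1.24 (SE 0.65; edgeR adjusted p = 0.761). Slco2a1, which takes prostaglandins up, was above the naïve range in 3 of 5 withdrawn mice and was called by neither tool (log2 fold change 2.93, SE 1.22; adjusted p = 0.618 by edgeR and 0.193 by DESeq2). Without withdrawn mouse 2 it was called by DESeq2 (adjusted p = 0.0477) and not by edgeR (adjusted p = 0.340).

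Fibroblast markers moved with these genes. All 7 tested fibroblast markers had a positive log2 fold change (median 3.66), against 51.8% of all genes tested. Of the 7, 5 had an unadjusted p under 0.05 (7.22% of all genes, either direction) and 0 were called by edgeR. DESeq2 called 3 (Col1a1, Dcn and Ogn), against 1.66% of all genes to which it gave an adjusted p. Without withdrawn mouse 2, edgeR called Col1a1 (adjusted p = 0.0203) and Ogn (adjusted p = 0.00846), against 1.06% of all genes. DESeq2 then called 4 of the list, against 2.5% of all genes. The marker below the filter, Lum, had 0.0677 to 6.83 CPM in naïve and 0 to 2.54 CPM in withdrawn mice, with no withdrawn mouse above the naïve range. The summed level of all 8 was 1314, 18.1, 676.2, 926.6 and 232.1 CPM in withdrawn mice 1 to 5. In naïve mice 1 to 6 it was 4.39, 19.2, 78.8, 53.0, 0.0677 and 22.0 CPM. Withdrawn mouse 2 was within the naïve range, and had no counts of Ogn or Pdgfra. Withdrawn mice 3 and 5 had none of Lum or Slc6a13, and naïve mouse 5 had counts of 1 of the 8 markers. The order of the withdrawn mice by this sum (1, 4, 3, 5, 2) was also their order by Ptgdr and by Ptges, and for Ptgds mice 4 and 1 changed places. Hpgds, Ptgs1, Ptgs2, Ptges3 and Ptger3 followed other orders. Among naïve mice, mouse 3 had the highest fibroblast sum and only 2.23 CPM of Ptgds and 0.093 CPM of Ptges. The other 5 naïve mice had the same order by Ptges as by the sum (4, 6, 2, 1, 5), and by Ptgds mice 6 and 4 changed places. Withdrawn mouse 2, at 18.1 CPM of fibroblast markers, still had 8 counts of Ptgdr and 6.19 CPM of Ptges, above each naïve mouse. The part of fibroblast RNA in the differences of Ptgdr, Ptgds, Ptges, Pla2g4a and Ptgis was not tested.

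**Figure D5:**
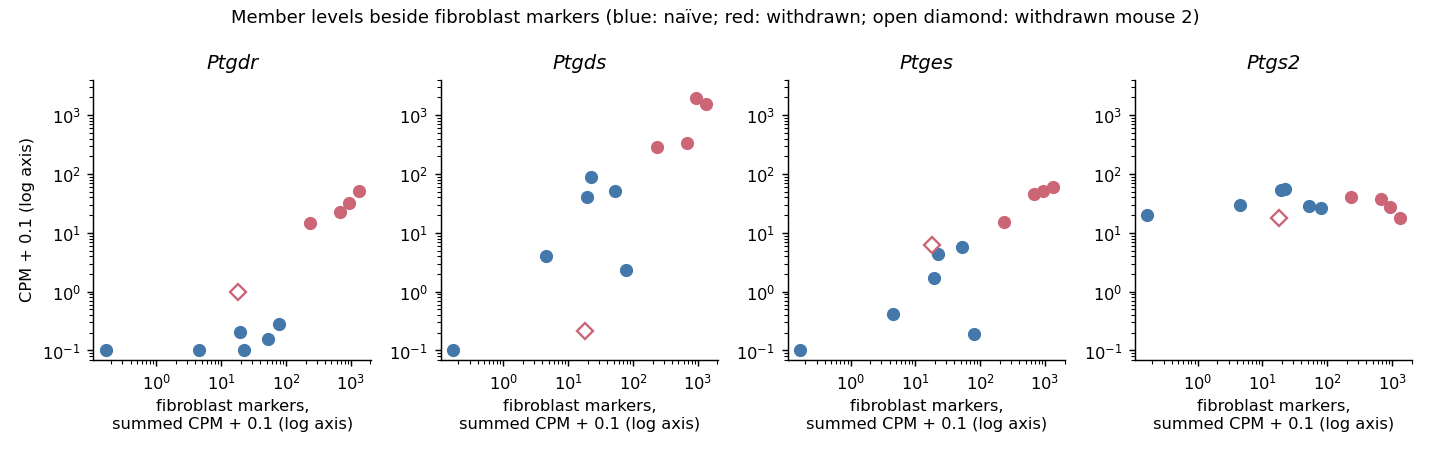
Level of Ptgdr, Ptgds, Ptges and Ptgs2 (CPM + 0.1, log axis) against the summed level of 8 fibroblast markers (CPM + 0.1, log axis) in 6 naïve (blue) and 5 withdrawn (red) mice, with an open diamond for withdrawn mouse 2. The other 4 withdrawn mice sit at 232.1 CPM of markers or more, where Ptgdr, Ptgds and Ptges are also highest, and Ptgs2 stays between 17.5 and 56.2 CPM throughout.

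Single markers of other lists also had a high fold change: Cldn11 of the oligodendrocyte list (log2 fold change 5.09, SE 1.39), Gja1 of the astrocyte list (3.61, SE 0.96) and Tmem119 of the microglia list (3.75, SE 1.47), each with 4 of 5 withdrawn mice above every naïve mouse and none called by edgeR (adjusted p = 0.262, 0.250 and 0.558). Cldn11 was called by DESeq2 (adjusted p = 0.00847). Without withdrawn mouse 2, edgeR called Cldn11 (adjusted p = 0.0385) and Gja1 (adjusted p = 0.0396) and not Tmem119 (adjusted p = 0.280). The sums of those lists overlapped between groups. Oligodendrocyte markers summed to 108.2 to 249.4 CPM in naïve and 97.6 to 244.4 CPM in withdrawn mice, astrocyte markers to 148.8 to 396.6 and 189.8 to 518.2 CPM, endothelial markers to 9.94 to 917.6 and 127.7 to 937.1 CPM, pericyte markers to 0.0677 to 164.1 and 11.2 to 167.2 CPM, and T and NK cell markers to 0 to 8.67 and 0.653 to 24.3 CPM.

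The genes whose log2 CPM followed Ptgdr most closely over the 11 mice were Ppp1r3b (Pearson r = 0.984), Serpinb6b (0.977), Cpz (0.972), Qprt (0.970) and Loxl1 (0.968). For Ptgds they included Arhgdib (0.991), Stom (0.988), Sned1 (0.982) and F3 (0.978). These values describe likeness over mice that fall into groups and share library depth. The genes were picked by likeness over these same mice, so their values in withdrawn mouse 2 follow from that choice and are no separate result. In that mouse the 5 genes of Ptgdr had 0.663 to 2.54 CPM. Of the genes named for Ptgds, Arhgdib, Stom and Sned1 were at 0 and F3 was at 0.111 CPM.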

How the data were processed

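Deposited values are raw counts per Ensembl gene and mouse, made by the authors without normalization or pooling. RNA (160 pg per mouse) was amplified with SMARTseq HT (14 PCR cycles for cDNA, 12 for libraries) and sequenced as single 75 nt reads. Per the submitters' processing notes and methods, reads were trimmed with cutadapt 1.18, mapped with STAR 2.5.2a to GRCm38 and counted with HTSeq 0.11.0 (Ensembl release 91). The authors tested with DESeq2 1.20.0. The strand setting is not given in the sources used here. Amplified reads are not independent molecules, so counting intervals and the floor of 3 counts cover counting error only.

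Groups follow the title and treatment of each sample. A source label reads control for 3 withdrawn mice, which were left out in an alternative. Libraries of a group were compared for duplicates, and none were alike (chi-square per degree of freedom at least 28.9 over 25 pairs). Nothing tells whether mice shared a cage or day, so p-values measure the spread between these mice.

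Withdrawn mice were compared with naïve mice in R 4.3.3 by edgeR 4.0.16 (TMM, filterByExpr with a minimum count of 10 and a minimum total of 15, quasi-likelihood test, Benjamini-Hochberg adjustment over 17093 genes). Calls needed an adjusted p no higher than 0.05 and a log2 fold change over 0.6 in size. The standard error is the size of the log2 fold change over the square root of F. The alternatives were DESeq2 1.42.0, its size factors, no low-count filter, a replicate block, each mouse left out, and, for levels, another gene length and library total. DESeq2 without withdrawn mouse 2 was added after seeing the data. The script was tested on simulated data. Symbols, exons and coordinates come from GENCODE M21 on GRCm38, in which 53274 of 53465 identifiers have a symbol. Promoter windows come from RefSeq, in which all 10 members matched.

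The members, gene lists and markers were chosen with earlier results of these data known. Named were all members, other prostanoid genes called by edgeR or DESeq2, the tested gene of each role with the highest naïve level per kb, genes whose exons overlap a member, and the 5 genes most correlated with Ptgdr or Ptgds, of which 1 is not reported here. Slco2a1, Ptger2, Ptges2, Cldn11, Gja1 and Tmem119 were named after their values were seen.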

Additional observations from a re-analysis of the deposited data

Results flagged for a closer look

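In 33 sets of values (a gene in a group), the mouse farthest from the rest was compared with the critical value of Dixon's test, and 4 sets passed it, where chance flags about 1 in 20 groups of untied values. Sets with tied zeros, Ptgdr2 among them, pass or fail by the ties, so the number passed cannot be read against that rate. The log2 CPM of Ptgds in withdrawn mouse 2 was -1.98, from 1 count, against 286.4 to 1979 CPM in the other 4 withdrawn mice. The log2 CPM of Ptgis in withdrawn mouse 2 was -2.80, the value given to 0 counts. The log2 CPM of Hpgds in naïve mouse 5, also at 0 counts, was -2.80, in the library with the fewest genes counted. The log2 CPM of Ptgdr2 in naïve mouse 1 was -1.49, from 2 counts where the other 5 naïve mice had none. Whether these mice differ for a technical or a biological reason was not tested.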

How the results depend on the processing

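The number of genes called moved with the processing, from 1 by edgeR to 362 by DESeq2 (342 higher), 137 with no low-count filter (136 higher), 0 without the 3 mice of conflicting label and 0 to 193 as each mouse was left out. The 193 came without withdrawn mouse 2, and with that mouse left out DESeq2 called 540 (519 higher), an alternative chosen after seeing the data. Of the members other than Ptgdr, 0 were called by edgeR, also with each mouse left out (0 to 0), against 1 by DESeq2, 1 with no low-count filter (Ptges in both) and 2 by DESeq2 without withdrawn mouse 2. Of the other prostanoid genes, 0 were called by edgeR, 2 by DESeq2, 0 to 2 with each mouse left out (2 without withdrawn mouse 2) and 3 by DESeq2 without withdrawn mouse 2.

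Same-numbered mice are different animals, and the deviations of same-numbered mice correlated at -0.00906, -0.0615, -0.20, 0.038 and 0.182, so the numbers did not pair the mice. A replicate block gave 0 called genes, and log2 fold changes of 6.58 for Ptgds, 5.73 for Ptges and -0.13 for Ptger3. Only in replicate number 5 did the mice correlate best with their own number.

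With each mouse left out, log2 fold changes were 4.10 to 5.41 for Ptgds, 3.87 to 4.79 for Ptges, 0.32 to 1.06 for Hpgds, 0.14 to 0.58 for Ptgs1, -0.51 to -0.16 for Ptgs2 and -0.45 to -0.16 for Ptges3. Ptger3 changed sign, from 0.07 to between -0.074 and 0.28 with each mouse left out, -0.15 without the 3 mice of conflicting label and -0.045 by DESeq2 without withdrawn mouse 2. Ptgs2, -0.34 with all mice, was -1.05 without those 3 mice. That setting left withdrawn mice 1 and 2, which had the lowest Ptgs2 of their group (17.8 and 17.5 CPM). Why these mice were lower was not tested. With the longest transcript as length, Hpgds and Ptges changed places in the naïve order, Ptgs1 exceeded Ptgs2 in 3 mice and Ptger3 had 6.27 CPM per kb. DESeq2's size factors in edgeR changed no call among these genes. Depth limits Ptgdr2, Ptger4 and the naïve level of Ptgdr, which lie at or near 3 counts.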
